A study of Homo sapiens with 12 samples.

Results

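Histone deacetylases remove acetyl groups from lysines of histones and other proteins. The zinc-dependent enzymes described here are the 10 genes HDAC1 to HDAC8, HDAC10 and HDAC11, chosen by symbol among the 16389 genes of the count table. All 10 had a row, and all 10 passed the filter on low counts in every comparison. By class they were 4 class I genes (HDAC1, HDAC2, HDAC3 and HDAC8), 3 class IIa genes (HDAC4, HDAC5 and HDAC7), 2 class IIb genes (HDAC6 and HDAC10) and HDAC11, the lone class IV enzyme.

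Gene expression was measured by RNA-seq of poly(A) RNA in HepG2, an established human liver cancer cell line, obtained at passage 9. LG cells were held for 48 h in medium with 5.5 mM glucose, and HG cells for 48 h in medium with 20 mM glucose. LGV and HGV cells were kept in the LG and HG media, respectively, and then received 1 mM valproic acid (VPA) for 12 h. All media contained serum, each group had 3 libraries, and it is not stated at which of these times the untreated cells were collected. Nothing in the labels says that the 3 libraries came from separate cultures, so p-values measure the spread between these libraries, which may be technical. The cells are a single tumour line, and RNA in bulk cannot tell fewer expressing cells from less RNA per cell.

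Class I enzymes are mostly nuclear and act inside repressor complexes: HDAC1 and HDAC2 in SIN3, NuRD and CoREST, and HDAC3 in NCoR/SMRT. Class IIa proteins have weak catalytic activity of their own, bind MEF2 transcription factors, and shuttle between nucleus and cytoplasm with 14-3-3 proteins. HDAC6 is cytoplasmic and deacetylates tubulin, HSP90 and cortactin, HDAC10 is a polyamine deacetylase, and HDAC11 removes long acyl groups. VPA, a branched short-chain fatty acid used against epilepsy, inhibits the activity of class I and, more weakly, class IIa enzymes. The counts measure mRNA, so neither enzyme activity nor acetylation was read here.

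Total counts ran from 29798442 to 45572694 per library. All 10 hepatocyte markers were in the table, with a summed level of 40100 to 61700 CPM (counts scaled by library size and TMM factor). Blood cell markers had 1 of 5 genes in the table, at 0.23 to 1.01 CPM. Endothelial markers (2 of 4 genes) summed to 2.21 to 3.71 CPM in HG and 3.83 to 4.85 CPM in HGV, without overlap, and to 2.24 to 3.09 CPM in LG and LGV. The sum of fibroblast and stellate markers (3 of 5) was lower with VPA. It was 54.7 to 68.1 CPM in HG against 50.6 to 54.2 CPM in HGV, and 55.1 to 78.0 CPM in LG against 43.7 to 51.2 CPM in LGV. Its members did not move together. On the log2 scale ACTA2 fell in HG and LG medium (-0.76 and -0.77), while COL1A1, a scarce gene, rose (2.52 and 2.36). PDGFRB differed by 0.26 in HG medium (FDR 0.197) and fell in LG medium (-0.47, FDR 0.0246). Cholangiocyte markers (2 of 4, EPCAM and SOX9) summed to 476 to 482 CPM in HG, above 367 to 416 CPM in HGV and 344 to 404 CPM in LG, and to 330 to 363 CPM in LGV. The part of these markers in the differences between groups was not tested. The hepatocyte sum was 52100 to 58800 CPM in LG and 40100 to 41000 CPM in LGV. In LGV 7 of 10 markers were called lower and 0 higher, beside 19.9% and 21.7% of all genes. In HG the sum was 53100 to 60900 CPM and in HGV 47000 to 61700 CPM. In HGV 3 of 10 markers were called lower and 1 higher, beside 20.2% and 25.8% of all genes. The part of the hepatocyte markers in the VPA results was not tested. The mitochondrial share of counts was 5.70 to 6.28% in LG, 6.42 to 7.62% in LGV, 7.50 to 7.72% in HG and 7.95 to 8.91% in HGV, and its part in the differences was not tested. TXNIP, a glucose-induced gene used to check the medium labels, was higher in HG than in LG by 5.37 on the log2 scale. H1F0, a linker histone gene often raised by deacetylase inhibitors, differed by 0.23 in HGV against HG (FDR 0.114) and -0.11 in LGV against LG (FDR 0.536), so it did not pass the test in either medium.

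Upstream sequences are shown for HDAC1 and HDAC3, the deacetylase genes that rose with VPA in both media, for HDAC4, which fell in LG medium, and for HDAC2, which passed no test. Each is a 200-base window from 250 to 51 bases before a RefSeq start site, taken from the GRCh38.p14 promoter table. Each matched a single place in GRCh37 and was free of annotated exons of its own gene. Exons of other genes were not checked. Letters run 5′ to 3′ on the strand of the gene, and capitals mark a GC box (GGGCGG or CCGCCC) or a CCAAT box (CCAAT or ATTGG).
HDAC1 (chr1:32757434-32757633, plus strand): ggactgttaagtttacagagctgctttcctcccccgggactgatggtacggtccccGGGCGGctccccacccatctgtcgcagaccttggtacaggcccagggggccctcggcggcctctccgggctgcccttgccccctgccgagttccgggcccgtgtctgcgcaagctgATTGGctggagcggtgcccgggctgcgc
HDAC3 (chr5:141016467-141016666, minus strand): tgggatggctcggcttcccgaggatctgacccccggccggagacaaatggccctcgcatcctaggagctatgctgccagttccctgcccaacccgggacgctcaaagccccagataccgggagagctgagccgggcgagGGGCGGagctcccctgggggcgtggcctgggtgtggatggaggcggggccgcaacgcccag
HDAC4, outermost start site (chr2:240323394-240323593, minus strand): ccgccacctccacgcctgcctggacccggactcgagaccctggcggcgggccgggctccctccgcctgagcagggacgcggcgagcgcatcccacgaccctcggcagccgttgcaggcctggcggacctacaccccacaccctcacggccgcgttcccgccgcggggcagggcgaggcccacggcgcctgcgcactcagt
HDAC2 (chr6:114292363-114292562, minus strand): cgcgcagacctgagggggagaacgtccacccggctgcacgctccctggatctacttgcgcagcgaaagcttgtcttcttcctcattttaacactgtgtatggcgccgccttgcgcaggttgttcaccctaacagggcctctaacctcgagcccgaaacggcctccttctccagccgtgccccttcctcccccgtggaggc

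The HDAC1 window held 1 GC box and 1 CCAAT box, the HDAC3 window 1 GC box, and the HDAC4 and HDAC2 windows neither. Their GC contents were 69.5%, 70.0%, 77.0% and 62.0%, against a median of 57.5% over all promoters. Across the RefSeq table, 9 of the 10 genes matched, with 15 promoters. HDAC5 was not matched. Of the 15 windows, 6 held a GC box and 4 a CCAAT box, while 35.0% and 27.4% of all 35116 promoters held them. Among windows not shown, that of HDAC10, which fell in HG medium, held 3 GC boxes and 1 CCAAT box. HDAC6, which passed in neither medium, held 2 GC boxes at start sites 1 and 3, with 2 and 1 CCAAT boxes. These HDAC6 windows overlap and share 1 CCAAT box, and 196 and 200 of their 200 bases lie in annotated HDAC6 exons. The HDAC11 window held 2 GC boxes, and the remaining windows held neither box. A link of these boxes with the response to VPA was not tested. The TATA box (TATAAA), the E-box (CACGTG) and the ETS site (CCGGAAG) were searched on both strands as well and were in none of the 15, against 7.63%, 4.51% and 5.13% of all promoters. A GC box can lie next to or within a longer GC-rich run, and a match is only a match of letters.

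With VPA in HG medium, the mRNAs of HDAC1, HDAC3 and HDAC11 rose by 1.41- to 1.5-fold, and those of HDAC5, HDAC7 and HDAC10 fell by 1.25- to 1.58-fold. These were 6 of 10 genes past an FDR of 0.05 in edgeR's quasi-likelihood F test with Benjamini-Hochberg adjustment over all genes, where 46.1% of all 16188 genes tested passed, 25.8% higher and 20.2% lower. In LG medium HDAC1 and HDAC3 rose by 1.37- and 1.29-fold, and HDAC4 and HDAC5 fell by 1.37- and 1.54-fold. That made 4 of 10 genes past the same threshold, against 41.6% of all 15944 genes, 21.7% higher and 19.9% lower. So 3 genes (HDAC1, HDAC3 and HDAC5) passed in both media, 7 in at least 1 medium, and HDAC2, HDAC6 and HDAC8 in neither. The shares are near the background, and the sizes were moderate: the 10 genes had a median log2 fold change of -0.14 in HG medium and 0.12 in LG medium, beside 0.02 and -0.01 for all genes, and the median absolute change of all genes was 0.39 in each.

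**Figure D1:**
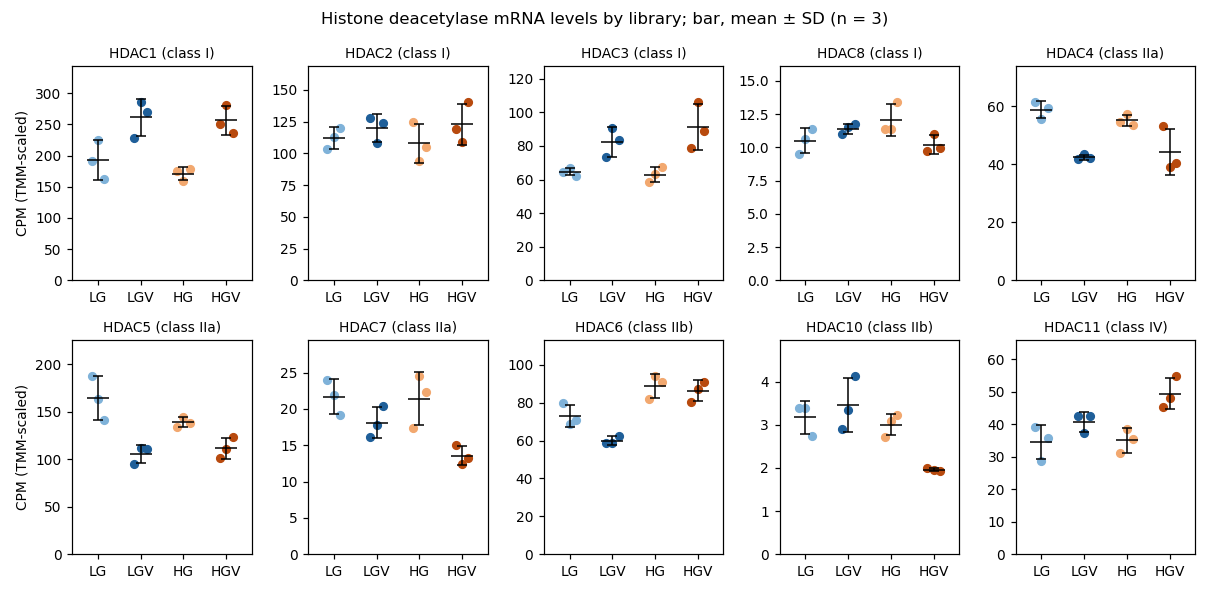
TMM-scaled CPM (vertical axis, linear, from 0) of each of the 10 deacetylase genes in LG, LGV, HG and HGV, where each point is 1 library and bars give the mean ± SD of 3 libraries. HDAC1 and HDAC3 lie higher in each VPA group than in its untreated group without overlap, HDAC5 lies lower, and the 3 HGV libraries of HDAC10 sit together near 1.96 CPM.

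Among class I genes, HDAC1, the deacetylase shared by the SIN3, NuRD and CoREST complexes, showed the steepest rise. Its level was 175, 159 and 179 CPM in HG replicates 1, 2 and 3, and 250.4, 282 and 237 CPM in HGV. In LG it was 192, 225 and 162 CPM, and in LGV 228, 286 and 270.0 CPM. The VPA libraries lay above the untreated ones in both media, although LGV replicate 1 was only just above LG replicate 2. The log2 fold change was 0.58 (SE 0.104, FDR 0.000594) in HG medium and 0.45 (SE 0.139, FDR 0.0178) in LG medium. Without LG replicate 1, LGV replicate 2 or LGV replicate 3 the LG value was 0.44, 0.38 and 0.44, with FDRs of 0.0696, 0.0753 and 0.0573, so the call was lost at a similar fold. Processed pseudogenes of HDAC1 lie on chromosomes 10 and 1 (HDAC1P1 and HDAC1P2), and reads that match them equally well could be lost from its count.

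HDAC3 is the catalytic subunit of NCoR/SMRT, the corepressor used by nuclear receptors in liver. Its mRNA was measured at 58.3, 63.1 and 67.7 CPM in HG and at 79.0, 106 and 88.9 CPM in HGV. The LG libraries held 64.7, 66.7 and 62.4 CPM, and the LGV libraries 73.2, 90.6 and 83.6 CPM. The groups did not overlap in either medium, and replicate 2 was the highest of both VPA groups. HDAC3 rose by 0.54 on the log2 scale in HG medium (SE 0.122, FDR 0.00315) and by 0.36 in LG medium (SE 0.116, FDR 0.021). The LG value lost its call without LG replicate 1 (0.36, FDR 0.0583), LGV replicate 2 (0.29, FDR 0.112) or LGV replicate 3 (0.37, FDR 0.0666).

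HDAC2, the close relative and partner of HDAC1, passed no test. Its level was 125, 93.9 and 105 CPM in HG and 119, 109 and 140.5 CPM in HGV, and 103, 113 and 120.2 CPM in LG and 128, 108 and 124 CPM in LGV. Treated and untreated libraries overlapped in both media. The log2 difference was 0.19 in HG medium (95% interval -0.09 to 0.47, FDR 0.259) and 0.11 in LG medium (-0.15 to 0.37, FDR 0.502). The intervals of HDAC1, 0.36 to 0.81 in HG medium and 0.15 to 0.75 in LG medium, overlapped these. Whether HDAC1 and HDAC2 differed in their response was not tested. The ratio of HDAC1 to HDAC2 counts was 1.60 ± 0.173 (SD, n = 3) in HG and 2.13 ± 0.451 in HGV, and 1.73 ± 0.336 in LG and 2.20 ± 0.436 in LGV. These ratios overlapped between LG and LGV (1.35 to 1.99 and 1.78 to 2.65). They also overlapped, narrowly, between HG and HGV (1.4 to 1.7 and 1.69 to 2.59).

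HDAC8, a class I enzyme that works outside those complexes and deacetylates cohesin, was the scarcest of its class at 9.50 to 13.4 CPM over the 12 libraries. It was 11.4, 11.4 and 13.4 CPM in HG and 9.69, 10.98 and 9.97 CPM in HGV. The HGV libraries lay below the HG libraries, but the difference of -0.24 (95% interval -0.53 to 0.05) did not pass, with an FDR of 0.159. In LG medium the fitted difference had the other sign, 0.13 (interval -0.21 to 0.46, FDR 0.554), with overlapping libraries.

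All 3 class IIa genes were fitted lower with VPA in both media, and 4 of those 6 values passed, where 20.2% of all genes were called lower in HG medium and 19.9% in LG medium. HDAC5 fell in each medium, from 134, 145 and 138 CPM in HG to 101, 110.5 and 123 CPM in HGV, and from 188, 164 and 142 CPM in LG to 95.2, 112 and 111 CPM in LGV. No treated library reached an untreated library of the same medium. The log2 fold change was -0.62 (SE 0.128, FDR 0.00131) in LG medium and -0.32 (SE 0.104, FDR 0.0244) in HG medium. The HG value lost its call with library sizes as the only scaling (-0.20, FDR 0.142) and, at a similar fold, without HG replicate 2 (-0.29, FDR 0.0901), HG replicate 3 (-0.32, FDR 0.0768) or HGV replicate 1 (-0.25, FDR 0.105). In GENCODE 44, 24.0% of the merged exons of HDAC5 overlap G6PC3 on the other strand. G6PC3 itself was lower in LGV than in LG (log2 -0.71, FDR 0.00639) and differed by -0.12 in HGV against HG (FDR 0.493). The authors counted reads on an Ensembl annotation, in which this overlap was not measured. Whether the counting used strand is not stated, so the part of G6PC3 in the HDAC5 count was not tested.

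HDAC4, a repressor of MEF2 target genes, was at 61.5, 55.8 and 59.4 CPM in LG and fell to 42.0, 43.5 and 42.1 CPM in LGV. The LGV libraries were close together and lay well below LG, with a log2 fold change of -0.46 (SE 0.11, FDR 0.00384) that kept its call without any single library. In HG medium the values were 54.6, 57.4 and 53.7 CPM untreated and 53.2, 39.0 and 40.6 CPM with VPA. HGV replicate 1 stood just under the HG libraries and the other two well below, and the difference of -0.32 (SE 0.127, 95% interval -0.60 to -0.04) had an FDR of 0.0571. Without HGV replicate 1 it was -0.47 with an FDR of 0.00832, and the DESeq2 Wald test on all 6 libraries gave an FDR of 0.0281.

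HDAC7, the class IIa gene with a role in the endothelium and in thymocytes, gave the largest fall in HG medium. It was at 17.4, 24.6 and 22.3 CPM in HG and at 15.02, 12.5 and 13.3 CPM in HGV, with no overlap. The log2 fold change was -0.66 (SE 0.146, FDR 0.00267), a size that 70.1% of all genes tested stayed under. In LG medium it was 23.9, 22.0 and 19.2 CPM untreated and 16.2, 17.7 and 20.4 CPM with VPA. Those libraries overlapped, and the difference of -0.25 (95% interval -0.55 to 0.06, FDR 0.189) did not pass.

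Of the class IIb genes, HDAC6, the tubulin deacetylase, did not pass with VPA in either medium. In HG it was 81.9, 94.2 and 90.7 CPM and in HGV 80.2, 87.4 and 91.2 CPM, a difference of -0.04 (95% interval -0.27 to 0.18, FDR 0.752) whose sign turned with library sizes as the only scaling. In LG it was 79.8, 68.9 and 70.7 CPM, and the LGV libraries at 58.6, 58.8 and 62.5 CPM lay below them. That difference of -0.27 (interval -0.51 to -0.04) had an FDR of 0.063, and fell under 0.05 without LG replicate 2 (-0.32, FDR 0.042) and when all 12 libraries were fitted together (-0.28, FDR 0.0382).

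HDAC10 was the scarcest gene of the family, with 65 to 155 reads per library. Its level was 2.73, 3.08 and 3.22 CPM in HG and 1.99, 1.95 and 1.94 CPM in HGV. The HGV libraries were all below HG and close together, giving a log2 fold change of -0.62 (SE 0.183, FDR 0.0147). Without HG replicate 3 it was -0.57 with an FDR of 0.0707. In LG it was 3.40, 3.39 and 2.73 CPM and in LGV 2.91, 3.35 and 4.14 CPM, with overlap and a difference of 0.14 (95% interval -0.33 to 0.61, FDR 0.65). In GENCODE 44, 55.8% of the merged exons of HDAC10 are shared on the same strand with exons of its neighbour MAPK12. The authors counted reads on an Ensembl annotation, in which this overlap was not measured. Reads in exons shared there could not be assigned to either gene. MAPK12 rose in HGV against HG (log2 0.35, FDR 0.0416) and differed by -0.02 in LGV against LG (FDR 0.904), so the HDAC10 values are uncertain.

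HDAC11, the class IV gene, rose in HG medium from 31.1, 38.6 and 35.5 CPM to 45.4, 48.0 and 54.9 CPM. The HGV libraries exceeded every HG library, and the log2 fold change was 0.49 (SE 0.12, FDR 0.00467). In LG medium the values were 39.1, 28.8 and 35.8 CPM untreated and 42.6, 37.3 and 42.6 CPM with VPA. There the groups overlapped, and the difference of 0.25 (95% interval -0.04 to 0.54) had an FDR of 0.151. It passed only when library sizes were the sole scaling, at 0.41 with an FDR of 0.0478.

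**Figure D2:**
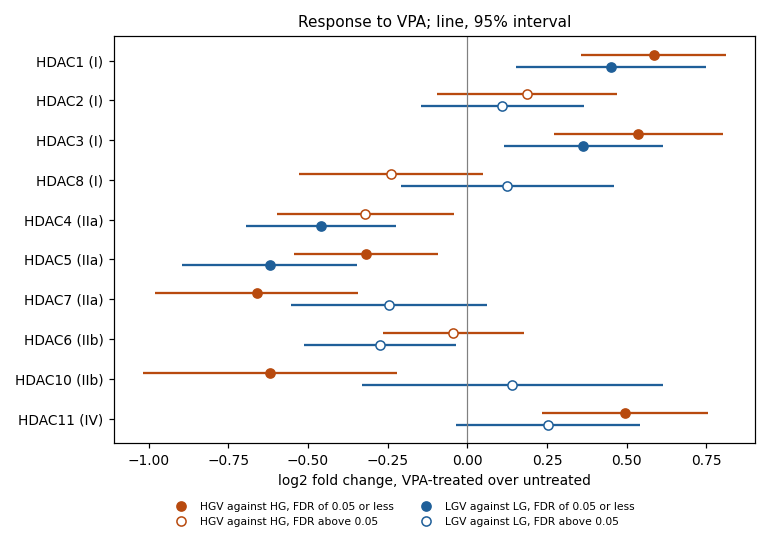
Log2 fold change of VPA-treated over untreated cells (horizontal axis) for each deacetylase gene, orange for HG medium and blue for LG medium, with 95% intervals as lines and filled points for an FDR of 0.05 or less. HDAC1 and HDAC3 lie to the right in both media, the 3 class IIa genes lie to the left in both, and HDAC10 lies on opposite sides.

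Seen over the family, 8 of the 10 genes had no overlap between HG and HGV libraries, where 54.6% of all genes had none, and 5 had none between LG and LGV, where 50.5% had none. The sign was the same in both media for 8 genes, and HDAC8 and HDAC10 changed sign. Whether the response itself differed with the medium was tested as an interaction term in a fit of all 12 libraries. None of the 10 genes passed in edgeR's quasi-likelihood test, in its likelihood ratio test or in DESeq2, and 1 had an unadjusted p of 0.05 or less; of all 16389 genes 0.0427% passed and 11.3% had such a p. That gene was HDAC10, with an interaction of -0.75 (SE 0.287, FDR 0.308 in edgeR). For HDAC7 the interaction was -0.40 (95% interval -0.84 to 0.04, FDR 0.496) and for HDAC5 0.32 (-0.04 to 0.67, FDR 0.506). A call in HG medium alone, as for HDAC7, HDAC10 and HDAC11, or in LG medium alone, as for HDAC4, is therefore not shown to be a difference between the media.

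The comparison of HG with LG asked how high glucose by itself bore on these genes. No deacetylase gene passed in edgeR's quasi-likelihood test, and none did in DESeq2, where 24.7% of all 15452 genes passed in edgeR, 12.0% higher and 12.7% lower. HDAC6 alone had an unadjusted p of 0.05 or less, where 37.9% of all genes had one. Its difference was 0.31 (95% interval 0.05 to 0.57, FDR 0.0751), and every HG library, at 81.9 CPM or more, lay above every LG library, at 79.8 CPM or less. HDAC6 passed when upper quartile factors replaced TMM (0.40, FDR 0.0216), when library sizes were the only scaling (0.40, FDR 0.0233) and in a single fit of the 12 libraries (0.32, FDR 0.0347). For the other genes the fitted differences ran from -0.22 for HDAC5 (95% interval -0.48 to 0.04) to 0.22 for HDAC8 (-0.13 to 0.57), and HDAC1 was at -0.15 (-0.42 to 0.12). The remaining 6 genes ran from -0.07 for HDAC4 to 0.05 for HDAC11, and the sign of HDAC2, HDAC3, HDAC4 and HDAC10 turned with library sizes as the only scaling. The groups did not overlap for HDAC6 and HDAC8 only, 2 of 10 genes against 41.2% of all genes, and for HDAC8 they met at 11.4 CPM.

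Under VPA the media differed for 3 of the 10 genes, where 40.7% of all 16208 genes passed, 21.2% higher and 19.5% lower. HDAC6 was higher in HGV than in LGV by 0.51 on the log2 scale (SE 0.115, FDR 0.00191), with 80.2 to 91.2 CPM against 58.6 to 62.5 CPM, and this held without any single library. HDAC10 fell by 0.84 (SE 0.222, FDR 0.00585) and HDAC7 by 0.43 (SE 0.143, FDR 0.0211), and neither group pair overlapped. Without LGV replicate 3 the HDAC10 value was -0.69 (FDR 0.0579) and the HDAC7 value -0.34 (FDR 0.148), so that HDAC6 was then the gene left. HDAC7 also lost its call without HGV replicate 3 (-0.42, FDR 0.0583). The difference for HDAC10 corresponded to 1.79-fold, the largest of any deacetylase gene in the 4 comparisons of groups, and 83.5% of all genes tested differed by less. HDAC11 was higher in each HGV library than in any LGV library, with a difference of 0.26 (95% interval 0.002 to 0.51) and an FDR of 0.0992. In 4 of 10 genes the groups did not overlap, beside 51.4% of all genes. These comparisons share libraries with the VPA comparisons, so they are not separate evidence on the same genes.

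**Figure D3:**
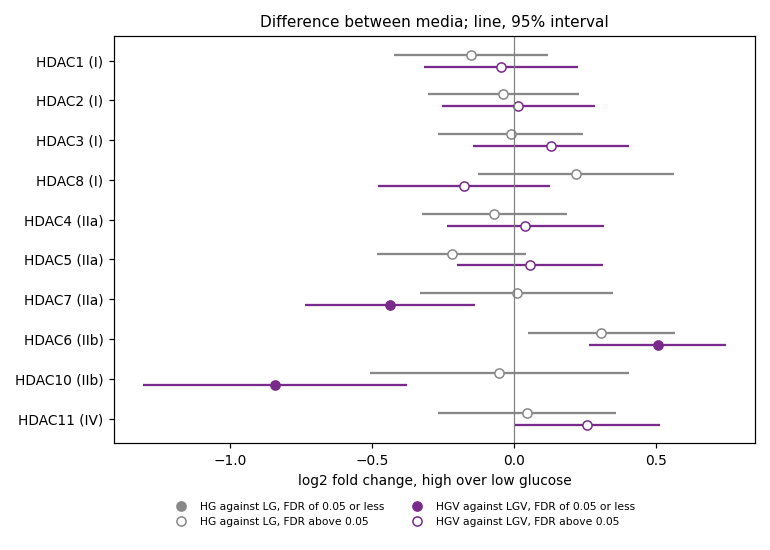
Log2 fold change of high over low glucose (horizontal axis) for each deacetylase gene, grey without VPA (HG against LG) and purple with VPA (HGV against LGV), with 95% intervals as lines and filled points for an FDR of 0.05 or less. No grey point is filled, and with VPA the filled points are HDAC6 on the right and HDAC7 and HDAC10 on the left.

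To compare the genes with each other, CPM was divided by the length of the merged exons in kilobases. It was divided again by the length of the canonical transcript, because merged exons of some genes were far longer than that transcript. Both lengths came from GENCODE 44, while the authors counted reads on an Ensembl annotation. The lengths may hold exons that were not counted, so levels per kilobase, their order and the class shares are approximate. HDAC1 had the highest level on each scale in every group, with 48.6 ± 7.94 CPM per kb (SD, n = 3, merged exons) in LG, 43.1 ± 2.59 in HG, 65.8 ± 7.62 in LGV and 64.6 ± 5.79 in HGV. HDAC5 and HDAC3 came next. HDAC5 had 21.6 ± 3.04 CPM per kb in LG and 18.2 ± 0.697 in HG, above HDAC3 at 14 ± 0.465 and 13.7 ± 1.02. Under VPA the order of that pair turned, with HDAC3 at 17.9 ± 1.91 in LGV and 19.8 ± 2.99 in HGV and HDAC5 at 13.9 ± 1.23 and 14.6 ± 1.45, and the libraries of the pair overlapped in none of the 4 groups. Per kilobase of canonical transcript HDAC3 stood above HDAC5 in all 4 groups, and in LG their libraries overlapped, so the order of the pair in untreated cells depends on the length used.

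HDAC2, HDAC11, HDAC6 and HDAC4 followed on merged exons in LG, HG and LGV, and neighbouring HDAC2 and HDAC11 overlapped in every group. HDAC7 was below them at 1.37 to 2.19 CPM per kb on average. HDAC8 and HDAC10 were lowest, at 0.446 to 0.527 and 0.396 to 0.700 CPM per kb. HDAC8 has 22888 bp of merged exons and a canonical transcript of 1754 bp, and on the latter scale it had 5.82 to 6.88 CPM per kb, beside HDAC4. The summed level of the 10 genes was 111 ± 9.60 CPM per kb in LG, 102 ± 2.60 in HG, 123 ± 10.1 in LGV and 128 ± 7.20 in HGV.

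Class I genes made up 63.6 ± 3.30% (SD, n = 3) of that sum in LG, 63.0 ± 2.49% in HG, 74.5 ± 1.34% in LGV and 72.6 ± 2.31% in HGV. The 6 VPA libraries, at 70.2 to 76.0%, all lay above the 6 untreated libraries, at 60.2 to 67.2%. The class IIa share went the other way, from 25.2 ± 1.97% in LG and 23.8 ± 1.37% in HG to 15.2 ± 0.197% in LGV and 15 ± 1.27% in HGV. Class IIb took 5.17 ± 0.463% in LG, 6.62 ± 0.463% in HG, 3.93 ± 0.275% in LGV and 4.98 ± 0.292% in HGV. The class IV gene HDAC11 took 6.03 to 7.41% on average. On canonical transcripts the class I share was 61.5 to 69.1% in untreated and 70.8 to 77.1% in VPA libraries, and with CPM alone it was 47.5 to 54.8% and 59.4 to 64.5%. Each share depends on the whole sum, of which HDAC1 alone held 43.1 of 102 CPM per kb in HG and 64.6 of 128 in HGV. A share can therefore fall where its genes hardly differ: HDAC6, the larger of the class IIb genes, had 6.14 CPM per kb in HG and 5.96 in HGV. The shares are a description of these genes and carry no test.

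**Figure D4:**
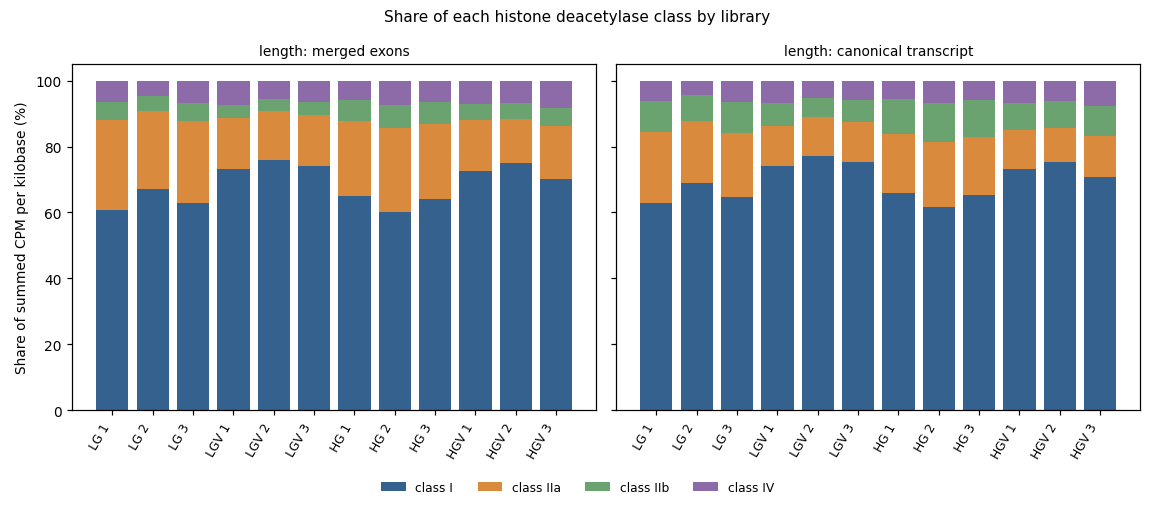
Share of the summed CPM per kilobase of the 10 deacetylase genes (vertical axis, percent, from 0) taken by classes I, IIa, IIb and IV in each of the 12 libraries, with merged exon lengths on the left and canonical transcript lengths on the right. On each side the class I part is larger and the class IIa part smaller in LGV and HGV than in LG and HG.

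Genes that work with the deacetylases were followed through lists of complex subunits, partners and substrates, and through the opposing enzymes, the lysine acetyltransferases. Of 91 listed genes, 89 could be tested in HGV against HG, and 24 were higher and 25 lower. In LGV against LG 24 of 88 were higher and 19 lower. The medians of the lists together were 0.02 and 0.07 on the log2 scale, and the counts stand beside 46.1% and 41.6% of all genes.

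Subunits of class I complexes moved in both directions: 13 rose and 14 fell of 46 in HG medium, and 13 rose and 7 fell of 45 in LG medium, beside 25.8% higher and 20.2% lower of all genes in HG medium and 21.7% and 19.9% in LG medium. In SIN3, ING2, which reads methylated histone H3, rose by 0.83 in HG and 1.15 in LG medium (FDR 0.00131 and 0.000239). The SIN3 subunits SAP30 (0.56 and 0.81) and SUDS3 (0.46 and 0.55) rose as well, while the histone chaperone RBBP4 (-0.56 and -0.45) and the scaffold SIN3B (-0.29 and -0.33) fell. In NuRD the chromatin remodeler CHD5, which is known mainly from neurons and testis, rose the most, by 2.76 and 3.39 (SE 0.275 and 0.341). CHD5 was scarce, with means of 0.55 CPM in HG and 0.36 CPM in LG, against 3.79 CPM in HGV and 3.69 CPM in LGV. The methyl-CpG binding protein MBD2 rose by 0.32 and 0.55. NuRD genes that fell were CDK2AP1 (-1.37 and -1.005), MBD3 (-1.17 and -1.20) and MTA1 (-0.55 and -0.59).

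In CoREST, HMG20B (1.16 and 0.91) and the scaffolds RCOR2 (0.68 and 1.08) and RCOR1 (0.36 and 0.38) rose, and ZMYM3 fell (-0.61 and -0.50). In NCoR/SMRT, the complex of HDAC3, CORO2A rose by 1.4 and 0.79 and the WD40 subunit TBL1X fell by 0.47 and 0.40.

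Among the class IIa partners, 7 rose and 1 fell of 19 in HG medium, and 6 rose and 1 fell of 19 in LG medium, with list medians of 0.19 and 0.20. Of all genes, 25.8% were called higher and 20.2% lower in HG medium, and 21.7% and 19.9% in LG medium. The kinases PRKD1 (1.81 and 2.58) and PRKD3 (0.52 and 0.73), which phosphorylate class IIa deacetylases, rose, as did SFN, the 14-3-3 sigma gene (1.07 and 0.83). YWHAE, the 14-3-3 epsilon gene, fell (-0.64 and -0.38). Of 10 HDAC6 substrates and partners, 2 rose and 2 fell in HG medium and 2 rose and 4 fell in LG medium. The tubulins TUBA4A (2.60 and 1.19) and TUBA1A (1.65 and 1.07) rose, and VCP (-0.30 and -0.61) and CTTN, the cortactin gene (-0.39 and -0.46), fell. Tubulin genes resemble each other closely, so reads that match several of them equally well could be lost from their counts. The tubulin values are therefore uncertain.

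Of the 14 lysine acetyltransferases, 8 fell and 2 rose in HG medium, with a median of -0.46, where 20.2% of all genes were called lower and 25.8% higher. In LG medium 7 fell and 3 rose, with a median of -0.28, beside 19.9% and 21.7% of all genes. The list as a whole was not tested. The falls were led by KAT6B (-1.97 and -1.67, FDR 4.35e-07 and 1.36e-07), by KAT5, the catalytic subunit of the TIP60 complex (-1.17 and -1.50), and by the coactivator CREBBP (-1.33 and -0.79). KAT2B rose by 1.14 and 0.86 and HAT1, which acetylates newly made histone H4, by 0.39 and 0.40.

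**Figure D5:**
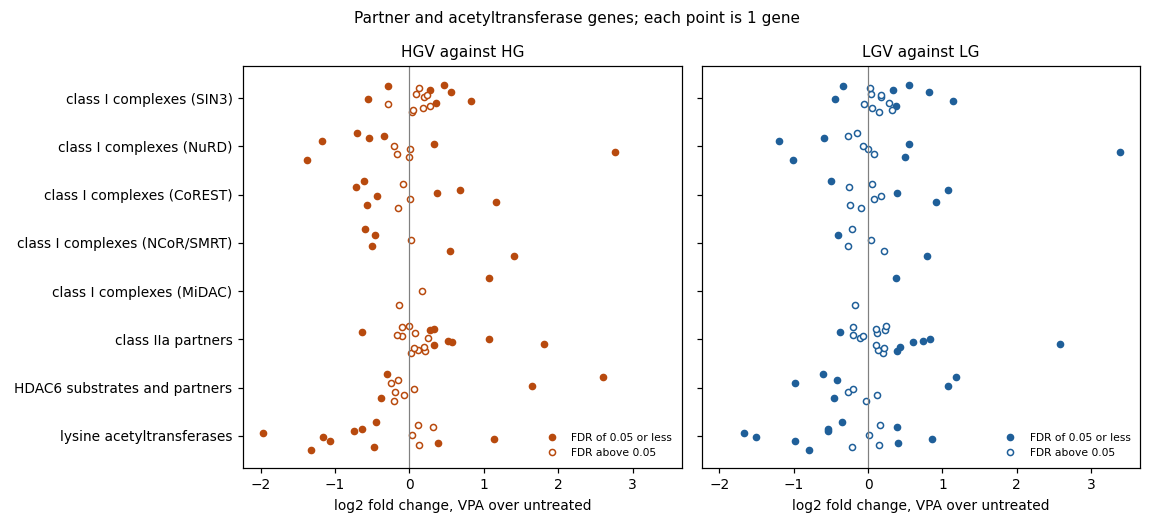
Log2 fold change with VPA (horizontal axis) of every tested gene of the partner and acetyltransferase lists, HGV against HG on the left and LGV against LG on the right, where each point is 1 gene and filled points had an FDR of 0.05 or less. CHD5, a scarce gene (means of 0.55 CPM in HG and 0.36 CPM in LG), lies farthest to the right in each panel, at 2.76 and 3.39. KAT6B lies farthest to the left, at -1.97 and -1.67.

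Between the media, 2 of 88 listed genes were higher and 14 lower in HG than in LG, and 6 of 89 were higher and 30 lower in HGV than in LGV. Of all genes, 12.0% were called higher and 12.7% lower in HG, and 21.2% higher and 19.5% lower in HGV. The list medians were -0.09 and -0.26 on the log2 scale. Without VPA the tubulin genes TUBA1B (0.60, SE 0.169, FDR 0.0148) and TUBA1C (0.43, SE 0.143, FDR 0.0357) were higher, and SQSTM1, the autophagy receptor p62 (-0.91, SE 0.134), and ELMSAN1, the scaffold of the MiDAC complex (-0.70, SE 0.14), were lower. With VPA the MiDAC subunit TRERF1 (1.45, SE 0.408, FDR 0.00857) and TUBA4A (1.35, SE 0.181) were higher, and ELMSAN1 (-0.94, SE 0.129) and CDK2AP1 (-0.88, SE 0.136) were lower. TRERF1 was scarce, with means of 0.29 CPM in LGV and 0.82 CPM in HGV. The interaction passed for none of the 89 listed genes in edgeR's quasi-likelihood test and for 1 in DESeq2, and 10 had an unadjusted p of 0.05 or less. Of all 16389 genes, 0.0427% passed in the quasi-likelihood test and 11.3% had such a p, and DESeq2 called 161. The listed genes were thus near the share of all genes.

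Across the 12 libraries the levels of HDAC1 and HDAC3 ran together, with a Pearson correlation of 0.88 on log2 CPM, and that of HDAC3 with HDAC4 was -0.86. HDAC7 and HDAC10 had 0.82, HDAC4 and HDAC5 0.75, and HDAC1 and HDAC2 0.29. These describe 12 points in 4 groups that share treatment, medium and scaling, and no test was made. The genes whose pattern was most like HDAC1 were TUFT1, CHP1 and ZBTB46 (0.99 to 0.97), and those most like HDAC3 were DCTN3, ACOT7 and TPM3 (0.98 to 0.96). NID1, URB1 and MORC2 were nearest to HDAC4 (0.98 to 0.96), CPSF1, TMEM39B and TNIP1 to HDAC5 (0.97 to 0.96), and NFIC, RAI1 and SMARCA4 to HDAC7 (0.95 to 0.94). HDAC6 was followed most closely by LHPP, BTBD2 and DHRS2 (0.97 to 0.96), HDAC11 by NPM2, PRR24 and CLIC3 (0.97 to 0.96), and HDAC2 by CCDC66, CEP135 and ARHGAP18 (0.95 to 0.93). For HDAC10 the nearest were PHF21A, FAM150B and DCAF5 (0.93 to 0.92), and for HDAC8 C12orf73 had 0.88 and C18orf21 0.81.

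The genes lie at separate places of the genome, in GRCh37 coordinates: HDAC1 at chr1:32757684-32799236, HDAC2 at chr6:114254192-114332472, HDAC3 at chr5:141000443-141016416 and HDAC8 at chrX:71549366-71792951. The class IIa genes lie at chr2:239969864-240323348 (HDAC4), chr17:42154114-42201070 (HDAC5) and chr12:48176505-48226915 (HDAC7). HDAC6 lies at chrX:48659784-48683392, HDAC10 at chr22:50683612-50689834 and HDAC11 at chr3:13521224-13547924. Counts were summed over all exons of each gene, so isoforms of a gene were not told apart.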

How the data were processed

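RNA-seq counts of 12 HepG2 libraries were used, 3 for each of LG, HG, LGV and HGV, grouped by their labels. The 10 genes, the lists of partner genes and the tests were chosen with earlier results of these data known.

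The authors deposited raw counts for 16389 genes with a mean of at least 10, made from trimmed single-end reads by STAR alignment to GRCh37 and featureCounts at the level of Ensembl genes, and did not normalize them. bcl2fastq 2.17.1.14 is named in the submitters' processing notes. The strand setting is not given in the sources used here, although the library kit keeps strand. Total counts were 29798442 to 45572694, and 3 reads correspond to 0.0713 to 0.112 CPM, as counting error only.

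A mean count of 10 or more in the libraries compared was required. The test was that of edgeR 4.0.16, run in R 4.3.3 (TMM factors, quasi-likelihood F test, group as the only term, Benjamini-Hochberg over all genes), and it was checked on simulated data. A gene was called where the FDR did not exceed 0.05. CPM values were scaled with TMM factors. An SE was the log2 fold change divided by the square root of F. Groups were said not to overlap where every library of a group lay above every library of the other. Alternatives were DESeq2's size factors, upper quartile or library size scaling, the likelihood ratio test, DESeq2 1.42.0, other filters, replicate number as a block, a fit of all 12 libraries, omission of each replicate and a threshold of 0.01. Canonical transcript length was added after seeing the data.

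Positions, lengths and exon overlaps came from GENCODE 44 mapped to GRCh37, and promoters from the RefSeq table. The authors counted reads on an Ensembl annotation of GRCh37, whose exons may differ from these. All 10 genes were named in every comparison. Partners were named, per list, as up to 3 genes each way with the largest mean log2 fold change among those called in the same direction in both VPA comparisons, and up to 2 each way over all lists for each comparison of media. For each gene the 3 genes with the highest correlation of log2 CPM (prior count 1) were taken. Plots were drawn with matplotlib 3.10.9 in Python 3.11.15.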

Additional observations from a re-analysis of the deposited data

How the results depend on the processing

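Of the 10 genes, the number past the threshold in HGV against HG was 4 to 7 over the alternatives and 4 to 6 with a library left out (6 as reported). In LGV against LG it was 4, but 2 at an FDR of 0.01. It was 5 with library size only, where HDAC11 was added, and 5 in a fit of all 12 libraries, where HDAC6 was added. With a library left out it was 2 to 5, and 2 without LG replicate 1, LGV replicate 2 or LGV replicate 3. HG against LG gave 0, and 1 gene, HDAC6, with upper quartile factors, with library size only and in a fit of all 12 libraries. HGV against LGV gave 3, but 2 at an FDR of 0.01 and 2 with library size only. With a library left out it gave 1 to 3, with 1 without LGV replicate 3. The interaction gave 0 under every alternative run. HDAC4 in HGV against HG passed with DESeq2's size factors (FDR 0.0355), the likelihood ratio test (0.0491), DESeq2 (0.0281), a fit of all 12 libraries (0.0372) and the replicate block (0.0186). HDAC5 there did not pass with upper quartile factors (-0.26, FDR 0.0647). In HGV against LGV, HDAC7 did not pass with upper quartile factors (-0.34, FDR 0.0641), library size only (-0.34, FDR 0.0818) or without HGV replicate 3 (FDR 0.0583), while HDAC11 passed with upper quartile factors (0.35, FDR 0.0295). The cause was not tested.

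Library size alone moved the median log2 fold change of all genes to 0.15 in HGV against HG, 0.16 in LGV against LG and 0.11 in HG against LG, and upper quartile factors moved it to 0.10 in HG against LG and in HGV against LGV. With library size the calls over all genes were 5182 higher and 2424 lower in place of 4184 and 3272 in HGV against HG, 4500 and 1956 in place of 3461 and 3177 in LGV against LG, 2172 and 1297 in place of 1854 and 1959 in HG against LG, and 3761 and 2309 in place of 3444 and 3160 in HGV against LGV. With upper quartile factors they were 2458 higher and 1366 lower in HG against LG, and 4126 and 2375 in HGV against LGV. Signs turned in HGV against HG for HDAC6 (0.014 with upper quartile factors and 0.077 with library size). In HG against LG, upper quartile factors and library size gave 0.055 and 0.060 for HDAC2, 0.080 and 0.086 for HDAC3, 0.023 and 0.027 for HDAC4, and 0.042 and 0.049 for HDAC10. There HDAC3 was 0.007 with no further filter and 0.005 in a fit of all 12 libraries, and HDAC7 was -0.001 with the filter of 1 CPM and with the replicate block. HDAC1 in HGV against LGV was 0.050 and 0.046 in these scalings. None of these values passed the test in either form.

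With a library left out, signs turned within these ranges: HDAC6 in HGV against HG, -0.123 to 0.006; in HG against LG, HDAC2 -0.135 to 0.042, HDAC3 -0.034 to 0.056, HDAC7 -0.113 to 0.152, HDAC10 -0.148 to 0.029 and HDAC11 -0.049 to 0.16; in HGV against LGV, HDAC1 -0.134 to 0.025, HDAC2 -0.09 to 0.099, HDAC4 -0.111 to 0.127 and HDAC5 -0.02 to 0.125; in the interaction, HDAC1 -0.012 to 0.259, HDAC2 -0.022 to 0.162 and HDAC4 -0.003 to 0.209. Counts over all genes differed most for the interaction, with 7 in the quasi-likelihood test, 202 in the likelihood ratio test, 161 in DESeq2, 13 with the block, 1 with library size only or an FDR of 0.01, and 1 to 217 with a library left out. HG against LG gave 3813, and 1852 at an FDR of 0.01 and 1933 to 5338 with a library left out, and HGV against LGV gave 6604 and 4263 at 0.01. The partner lists had 16 calls in HG against LG, 6 at an FDR of 0.01, 10 with the block and 5 to 26 with a library left out, and 36, 22 and 21 to 42 in HGV against LGV at 0.05, at 0.01 and with a library left out.

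The class I share over the 12 libraries averaged 68.4% per kilobase of merged exons, 69.6% per kilobase of canonical transcript and 56.8% with no length. Whether replicate numbers pair the samples could not be told from 3 libraries per group. Libraries of the same number had correlations of their deviations from the group mean of -0.255 to 0.382. Those of different numbers had -0.485 to 0.478. With replicate number as a block, 7 of the 10 genes and 8229 of all genes were called in HGV against HG, 4 and 6971 in LGV against LG, 0 and 3351 in HG against LG, 3 and 7308 in HGV against LGV, and 0 and 13 for the interaction. HDAC10 had 65 to 155 reads per library, and the other genes at least 254.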
